A study of Mus musculus with 2 samples.

Results

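The genes described here make cholesterol and fatty acids. They are 34 named genes of the 45578 genes in the footprint table: enzymes that turn acetyl-CoA into sterols, enzymes that build, desaturate, elongate and activate fatty acids, and the proteins that regulate them. Members were chosen by gene symbol. Each gene was represented by the transcript with the highest count summed over both libraries, and all 34 were found. The samples were brains of control mice of genotype Smn+/-; SMN2tg/0 at postnatal day 5, on a congenic FVB background. These are animals of a spinal muscular atrophy strain with a single intact copy of mouse Smn and a human SMN2 transgene. The heterozygous loss of Smn and the transgene are thus carried by every animal measured here, so these controls are not wild-type mice. There was 1 group, with 2 biological replicates. Ribosomes were captured with RiboLace, in which beads carrying a puromycin analogue pull down translating ribosomes, and the fragments of 25 to 35 nucleotides protected by them were sequenced. The labels describe each library as coming from a control brain and do not give sex or litter.

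Cholesterol does not cross the blood-brain barrier, so the brain makes its own, from acetyl-CoA through mevalonate, farnesyl diphosphate, squalene and lanosterol. Fatty acid synthase makes palmitate, and desaturases and elongases turn it and dietary fatty acids into the longer and unsaturated chains of membranes and myelin. Both routes are controlled by the SREBP transcription factors. These are held in the endoplasmic reticulum by Insig proteins when sterols are plentiful, and are escorted to the Golgi by Scap when sterols are low.

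Replicate 1 held 343552 counts at the gene level and replicate 2 held 120282, so replicate 1 was 2.86 times deeper. Levels are given as CPM (counts scaled to the same TMM-adjusted library total in both libraries) per kilobase (kb) of coding sequence, so that genes can be compared with each other. On the CPM scale 1 count was worth 2.71 in replicate 1 and 8.93 in replicate 2, and 16 of the 34 members had fewer than 10 counts in replicate 2. The tissue label was checked on marker genes. All 6 neuronal markers had counts, with summed shares of 0.628% and 0.636% in replicates 1 and 2. All 7 astrocyte and radial glia markers (0.245% and 0.254%) and 6 of 7 oligodendrocyte lineage markers (0.063% and 0.064%) had counts in both libraries too, while Mog had 2 counts in replicate 1 and 0 in replicate 2. Erythroid markers, which mark blood in the tissue, held 0.410% and 0.385%, nearly all from globin genes, with 6 counts and 1 count for Alas2. Choroid plexus markers held 0.117% and 0.131%. Nearly all of these were Ttr, with 395 and 153 counts, against 4 and 2 for Folr1 and 2 and 0 for Kl. Liver markers (Alb, Apoa1, Apob) and adipose markers (Adipoq, Plin1, Cidec), which mark tissues rich in these enzymes, had 0 counts in both libraries, which allows shares of up to 0.00087% and 0.0025%. In whole brain, fewer cells of a type and less RNA per cell cannot be told apart.

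The 34 members together held 2481 counts in replicate 1 and 745 in replicate 2. Replicate 1 thus gave the members a share of 0.722%, with a 95% Wilson interval of 0.694 to 0.751. Replicate 2 gave 0.619% (0.577 to 0.665). The mean share was 0.671% ± 0.073 (SD, n = 2), and the intervals did not overlap. As a share of the counts of coding genes alone, a total chosen after seeing the data, the values were 0.888% (0.853 to 0.923) and 0.847% (0.789 to 0.910), and these intervals overlapped. All intervals given cover counting error only, and PCR copies of a fragment enter them as if each were an independent fragment. The 18 sterol enzymes held 0.287% (0.269 to 0.305) and 0.220% (0.195 to 0.248) of gene counts. These intervals did not overlap, and neither did those of the mevalonate steps alone, with 0.183% (0.169 to 0.198) and 0.142% (0.122 to 0.165). The 4 regulators held 0.051% (0.044 to 0.059) and 0.031% (0.022 to 0.042), also without overlap. With coding genes as the total, the intervals of all 3 of these groups overlapped, with 0.352% and 0.301% for the sterol enzymes, 0.225% and 0.194% for the mevalonate steps and 0.063% and 0.042% for the regulators. The 12 fatty acid enzymes held 0.385% (0.364 to 0.406) and 0.368% (0.336 to 0.404), and these overlapped. Scd2, Hmgcs1 and Fasn alone held 48.4% of the members' counts in replicate 1 and 53.6% in replicate 2.

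Promoter sequences from RefSeq (build GRCm38.p6), covering 250 bases before to 50 after each annotated start, were found for 28 of the 34 members. Scd2, Scd1, Fdft1, Fads1, Fdps and Sqle had no entry. They are shown because SREBPs are known to bind sterol regulatory elements together with NF-Y, which binds CCAAT. The sterol regulatory core TCACNCCAC, searched on both strands, was present in 1 of the 28 members, Hmgcs1, against 1.44% of the 27025 genes in the table. CCAAT, also searched on both strands, was present in 22 of the 28, or 78.6%, against 41.1% of all genes and 42.8% of the 3190 coding genes that also passed the count minimum of the replicate test. The footprint levels of the 22 members with CCAAT had a median of 58.0 CPM per kb (15.0 to 732). Those of the 6 without it had a median of 38.8 (15.1 to 279), and the ranges overlapped. These medians leave out the members with no entry, among them 4 of the 6 with the highest levels. A match is a description of these letters and not a measured binding site. The windows of 30 bases below are written 5′ to 3′ on the gene's strand. Capitals mark the match: the sterol regulatory core in Hmgcs1, and CCAAT or its reverse complement ATTGG in the others.
Hmgcs1: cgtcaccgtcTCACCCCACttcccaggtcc
Fasn: cggcctcggtgtCCAATtggtttcgatgtg
Srebf2: cttcgcgcgccgATTGGctaatgcaagcct
Cyp51: cgctgtccgccaCCAATctggtcctgagat
The Hmgcs1 window is chr13:119690204-119690233 on the plus strand, with its match beginning 137 bases before the start. The Fasn window is chr11:120824592-120824621 on the minus strand, with its match beginning 62 bases before the start. An ATTGG beginning 59 bases before the start overlaps that match, and its last bases are left in lower case. Another Fasn match, beginning 90 bases before the start, lies outside the window. The Srebf2 window is chr15:82147122-82147151 on the plus strand and the Cyp51 window is chr5:4104709-4104738 on the minus strand, with matches beginning 135 and 29 bases before the start.

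Member levels spanned 77.7-fold, from 1165 CPM per kb for Scd2 to 15.0 for Elovl1. The span and its lower end depend on the transcript used: with the longest coding transcript Mvk was lowest at 5.66 and the span was 211-fold, and with transcripts summed Scap was lowest at 10.6 and the span was 55.2-fold. All 34 lay above the median of the 21874 coding genes, 4.61 CPM per kb, a median that includes genes with few or no counts. A mean of at least 10 counts was reached by 27 of the 34 members and by 20.1% of coding genes. Among the 4392 coding genes past that minimum, whose median was 60.8 CPM per kb, 17 of the 27 members lay above the median. The median member stood at 64.7 CPM per kb in replicate 1 and 56.5 in replicate 2. Across the 34 members the log2 levels of the libraries had a Pearson r of 0.95 and a Spearman rho of 0.914. These are descriptions over genes that share both libraries.

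**Figure D1:**
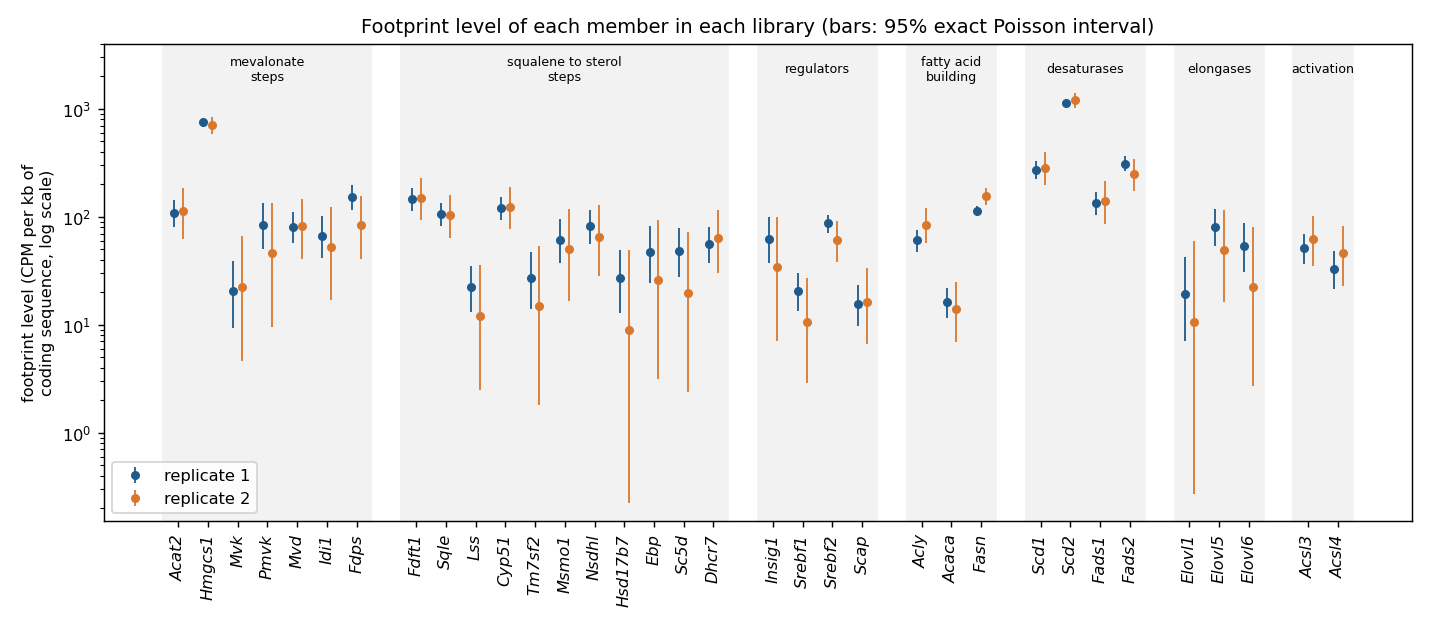
Footprint level of each of the 34 members (vertical axis, CPM per kb of coding sequence, log scale) in replicate 1 (blue) and replicate 2 (orange), grouped by role, with 95% exact Poisson intervals as bars. Scd2 and Hmgcs1 stand above all other members in both libraries, and the intervals of the low members are wide in replicate 2.

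The first steps, from acetyl-CoA to farnesyl diphosphate, were led by Hmgcs1 (ENSMUSG00000093930), the cytosolic synthase that makes HMG-CoA. Hmgcs1 had 436 counts in replicate 1 and 124 in replicate 2 over a coding sequence of 1563 nucleotides, or 756 and 708 CPM per kb (732 ± 33.6, SD, n = 2). It was above 97.0% of the coding genes past the count minimum. Both libraries placed it well above the other 6 genes of the mevalonate steps, none of which exceeded 153 CPM per kb in either library. Acat2, the thiolase that supplies acetoacetyl-CoA just before it, stood at 109 and 112 CPM per kb. Hmgcs1 was 6.94 times as high as Acat2 in replicate 1 (95% exact binomial interval 5.14 to 9.55) and 6.32 times in replicate 2 (3.68 to 11.6). With all transcripts of a gene summed, a way of counting described further on, the ratio was 2.97 and 3.27. Counted in that way, Fdps stood closest to Hmgcs1, at 287 and 177 CPM per kb against 371 and 364.

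The mevalonate-phosphorylating and decarboxylating enzymes followed at lower levels. Mvd, the decarboxylase that yields isopentenyl diphosphate, had nearly equal levels of 80.9 and 81.4 CPM per kb. Pmvk, phosphomevalonate kinase, stood at 84.2 and 46.3 from 18 and 3 counts. Mvk, mevalonate kinase, was the lowest of the 7 at 20.5 and 22.5 CPM per kb from 9 and 3 counts, but its mean level was 5.66 with the longest coding transcript in place of the most counted one. The replicates of Mvd lay close together, but with 11 counts its replicate 2 interval ran from 40.7 to 146 CPM per kb. The replicates of Mvk and Pmvk rest on too few counts, with 3 each in replicate 2, to read either closeness or a gap. Idi1, the isomerase of isopentenyl diphosphate, stood at 66.8 and 52.4 CPM per kb. Fdps, farnesyl diphosphate synthase, had 60 and 10 counts, or 153 and 84.1 CPM per kb, the widest gap between libraries in absolute terms among these 7 genes.

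From squalene onward, 3 enzymes had the highest levels. Fdft1, squalene synthase, the first step committed to sterols, stood at 145 and 149.9 CPM per kb from 67 and 21 counts. Cyp51, the lanosterol demethylase, had the same counts over a longer coding sequence and stood at 120.1 and 124 CPM per kb. Sqle, squalene epoxidase, an oxygen-dependent and rate-limiting step, stood at 106 and 104 CPM per kb. In each of the libraries these 3 were above the other 8 genes of the sterol steps. The 95% Poisson intervals of Sqle (81.9 to 134 and 63.5 to 160) still overlapped those of Nsdhl (56.5 to 115 and 28.3 to 129). With transcripts summed, Fdft1, at 74.1 CPM per kb, stood below Dhcr7 at 114, Msmo1 at 110.2 and Tm7sf2 at 83.8. Cyp51, at 114.5, then stood close to Dhcr7 and Msmo1. It was below both in replicate 1 (110.8 against 117.4 and 137.2) and above both in replicate 2 (118.2 against 110.1 and 83.1). Sqle, at 140.5, was then the highest of the steps from squalene onward. Lss, lanosterol synthase, acts between Sqle and Cyp51 and stood at 22.2 and 12.2 CPM per kb from 18 and 3 counts on its coding transcript.

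The later enzymes, which trim and rearrange lanosterol, ranged from 17.9 to 73.9 CPM per kb as means of the libraries. Nsdhl, a decarboxylating sterol dehydrogenase, stood at 82.1 and 65.6 CPM per kb, and Dhcr7, the reductase of the last step of one branch, at 55.5 and 63.1. Msmo1, the methylsterol oxidase, stood at 61.5 and 50.6. Ebp, a sterol isomerase, stood at 46.9 and 25.8, and Sc5d, a sterol desaturase, at 48.2 and 19.8. Tm7sf2, a sterol reductase, stood at 27.1 and 14.9 CPM per kb, and Hsd17b7, a keto reductase, at 27.0 and 8.89 from 10 and 1 counts. The intervals of each of these 7 genes overlapped between the libraries, and those of Ebp, Sc5d, Tm7sf2 and Hsd17b7 rest on 1 or 2 counts in replicate 2.

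Among the regulators, Srebf2 was the highest. Srebf2 encodes SREBP2, the factor that mainly drives sterol genes, and had 109 and 23 counts, or 87.1 and 60.5 CPM per kb (73.8 ± 18.8, SD, n = 2). Srebf1, which encodes the SREBP1 forms that mainly drive fatty acid genes, stood at 20.7 and 10.5 from 26 and 4 counts. Insig1, the retention factor and itself an SREBP target, stood at 62.5 and 34.3 CPM per kb from 18 and 3 counts. Scap, the escort and sterol sensor, stood at 15.6 and 16.3 CPM per kb, near the bottom of the members. Every regulator but Scap was lower in replicate 2, but the intervals of each of the 4 overlapped between the libraries.

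The enzymes that build palmitate did not share 1 level. Acly, which splits citrate to give cytosolic acetyl-CoA, stood at 60.4 and 84.5 CPM per kb. Acaca, acetyl-CoA carboxylase and the rate-limiting step, had 42 and 11 counts over 7038 coding nucleotides and stood at 16.2 and 14.0. Fasn, the multifunctional fatty acid synthase, had 316 and 130 counts over 7515 coding nucleotides and stood at 114 and 154. Fasn was 7.05 times as high as Acaca in replicate 1 (95% exact binomial interval 5.10 to 9.97) and 11.1 times in replicate 2 (5.99 to 22.7). With transcripts summed, that ratio was 3.28 and 6.04. The count of Fasn was the third highest of the 34 members, but per length it was the seventh, and the sixteenth with transcripts summed. Fasn was 1.89 and 1.83 times as high as Acly, but with transcripts summed the direction turned, to 0.594 and 0.573.

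The desaturases were the highest of the role groups, with a median of 278 CPM per kb. Scd2 (ENSMUSG00000025203), the stearoyl-CoA desaturase typical of neonatal brain, had 448 and 145 counts over 1077 coding nucleotides. This gave 1127 and 1202 CPM per kb (1165 ± 53.0, SD, n = 2), above 98.6% of the coding genes past the count minimum. Scd1, the form typical of liver and fat, had 107 and 34 counts, or 272 and 284 CPM per kb. Scd2 was above Scd1 by 4.15-fold in replicate 1 (95% exact binomial interval 3.36 to 5.18) and 4.23-fold in replicate 2 (2.89 to 6.34).

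The values of Scd1 and Scd2, and their ratio, are uncertain because the Scd genes are close paralogs. Scd3, with 89 and 31 counts, stood at 223 and 256 CPM per kb, and Scd4, with 53 and 17, at 135 and 143. Relative to Scd1, Scd3 stood at 0.823 (0.614 to 1.10) and 0.902 (0.536 to 1.51) and Scd4 at 0.498 (0.351 to 0.699) and 0.503 (0.263 to 0.925). Fragments that match several of the Scd genes cannot be told apart in the table. This holds in both libraries, so their close ratios do not bear on it.

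Fads1 and Fads2 desaturate polyunsaturated fatty acids. Fads2 stood at 311 and 247 CPM per kb from 153 and 37 counts, and Fads1 at 133 and 139.5 from 66 and 21. Fads2 was above Fads1 in both libraries, by 2.33-fold (1.74 to 3.16) and 1.77-fold (1.01 to 3.19).

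The elongases were thinly covered, with 49 counts in replicate 1 and 8 in replicate 2 over 3 genes. Elovl5, which extends polyunsaturated chains, stood at 81.3 and 49.6 CPM per kb. Elovl6, which extends palmitate, stood at 53.9 and 22.2 from 16 and 2 counts. Elovl1, which makes very long saturated chains, had 6 counts and 1 count and stood at 19.4 and 10.6. The ratio of Elovl1 to Elovl5 was 0.238 in replicate 1 (0.080 to 0.589) and 0.214 in replicate 2, where the interval of 0.0045 to 1.92 includes 1. The ratio of Elovl5 to Elovl6 had intervals that include 1 in both libraries. With transcripts summed it was 0.708 in replicate 1 and 1.64 in replicate 2, on opposite sides of 1.

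The acyl-CoA synthetases Acsl3 and Acsl4 activate fatty acids for use, Acsl4 with a preference for arachidonate. Acsl3 stood at 51.4 and 61.9 CPM per kb and Acsl4 at 33.0 and 46.0. The ratio of Acsl4 to Acsl3 was 0.642 (0.377 to 1.08) and 0.743 (0.309 to 1.73), and both intervals include 1.

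**Figure D2:**
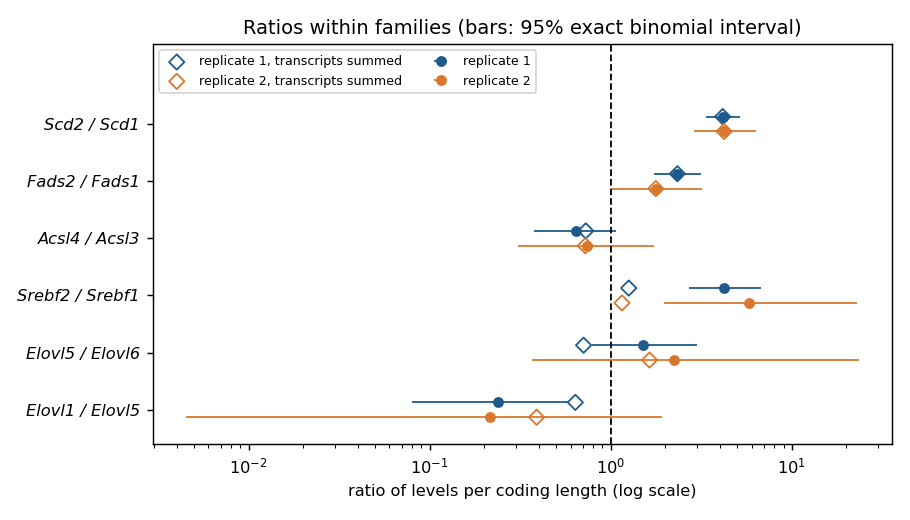
Ratio of levels per coding length for 6 pairs of related genes (horizontal axis, log scale) in replicate 1 (blue) and replicate 2 (orange), with 95% exact binomial intervals. Open diamonds are the ratios with all transcripts of a gene summed. The Scd2 to Scd1 ratio lies near 4.2 in both libraries, while the Srebf2 to Srebf1 ratio of 4.21 and 5.77 becomes 1.26 and 1.15 with transcripts summed.

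In the order of levels, 27 of the 33 neighbouring pairs had ranges over the libraries that overlapped. The 6 pairs that did not overlap were Scd2 above Hmgcs1, Hmgcs1 above Fads2, Scd1 above Fdft1, Fdft1 above Fads1, Acat2 above Sqle, and Sqle above Mvd. Non-overlap of 2 libraries is not a test, and some gaps were small: Fdft1 exceeded Fads1 by 1.08-fold and Acat2 exceeded Sqle by 1.06-fold. With transcripts summed the last of these turned, with Acat2 at 118 CPM per kb and Sqle at 140.5. Scd2 exceeded Hmgcs1 by 1.49-fold in replicate 1 (1.30 to 1.71) and 1.70-fold in replicate 2 (1.33 to 2.17). That order holds per coding length and turns per transcript length, where Hmgcs1 was the highest member at 354 CPM per kb, followed by Fads2 at 247 and Scd2 at 230.0.

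The order depends on how the transcripts of a gene are counted, which is not given in the sources used here. The 34 genes have 164 transcripts in the table, of which 99 are protein coding, 35 retain an intron and 29 are processed transcripts. Only 8 members have a single transcript: Scd2, Hmgcs1, Fads2, Scd1, Fdft1, Fads1, Mvd and Srebf2. The first 6 of these hold the 6 highest levels. Pairs of coding transcripts with the same coding length and untranslated regions within 30 nucleotides of each other were taken over all genes. There were 231 such pairs with both untranslated regions annotated and at least 20 counts per pair over both libraries. Their squared count difference divided by their sum averaged 0.453 in replicate 1 and 0.486 in replicate 2. For the 18 of these pairs whose untranslated regions had equal lengths it averaged 0.225 and 0.615. It would be near 0 if each fragment were counted for every transcript it matched, and near 1 if each were given to 1 transcript at random. Both values assume transcripts of the same sequence, which equal lengths do not ensure. A representative transcript may therefore hold only part of the fragments of a gene with several transcripts, and a sum may hold some of them more than once.

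Summing raised the library totals from 343552 to 729027 counts in replicate 1 and from 120282 to 225075 in replicate 2. A member with 1 transcript keeps its counts, so its level falls through the larger total and not through fewer fragments. With all transcripts summed and coding length kept, Scd2 at 585 CPM per kb and Hmgcs1 at 367 were still the first and second members. Fdps moved from the ninth place to the third at 232. Sqle then held the fourth place at 140.5 CPM per kb. The summed counts of Tm7sf2, which has 14 transcripts, were 6.79 times those of its representative, the most of any member, and its level became 83.8. Srebf1, with 12 transcripts, had summed counts of 87 and 20, which placed it at 30.4 CPM per kb against 36.9 for Srebf2. The Spearman rho between the orders was 0.763. Lss and Msmo1 had a retained-intron transcript as the one with the highest count, so their levels use their coding transcript, with 18 and 3 counts for Lss and 20 and 5 for Msmo1.

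**Figure D3:**
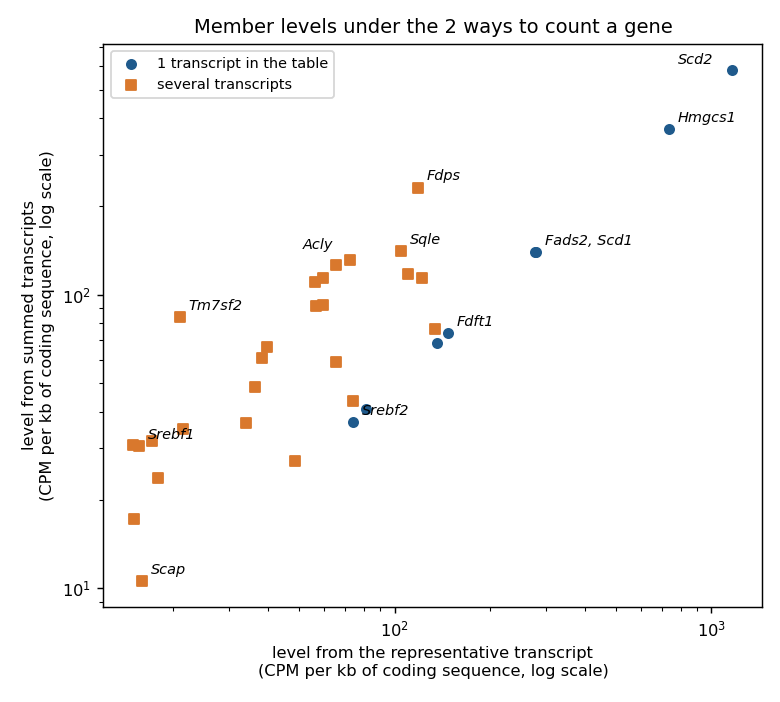
Mean level of each member from its representative transcript (horizontal axis) against its level with all transcripts summed (vertical axis), both in CPM per kb of coding sequence on log scales. The 8 members with 1 transcript (blue circles) lie on a line below most of the members with several (orange squares). Their counts stay the same with summing, while the library totals rise. Scd2 and Hmgcs1 are the 2 highest on both axes.

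With 1 group, the only test that the design allows compares the libraries with each other, and each side has 1 library, so a difference has no replicate check. Each gene was tested by a 2-sided exact binomial test, and p-values were adjusted by the Benjamini-Hochberg method over 5436 genes. At 0.05 this called 225 genes, or 4.14%, and 42 of the 4392 coding genes, or 0.956%. None of the 27 tested members was called. At an unadjusted p under 0.05, 1 member was found, Fasn, against 9.6% of all tested genes. None was called either by the exact negative binomial test of edgeR with a preset coefficient of variation. The 7 members below the count minimum were Elovl6, Ebp, Sc5d, Mvk, Tm7sf2, Hsd17b7 and Elovl1. The log2(CPM + 1) of replicate 2 minus that of replicate 1, here called the log2 ratio, had a median of -0.024 over the 27 members against 0.0041 over all tested genes. It was above 0 for 13 members and below 0 for 14.

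Fasn had a log2 ratio of 0.44 (counting SE 0.15), with an adjusted exact binomial p of 0.0921. With library totals the ratio of Fasn was 0.23 (adjusted exact binomial p = 0.648), and with at least 1 count in each library it was 0.25 (0.982). Fasn was also the only member whose 95% Poisson intervals did not overlap between the libraries. That overlap was not computed over all genes, so no background share can be set beside it. For Fdps the log2 ratio was -0.86 (SE 0.49), with an adjusted exact binomial p of 0.686. With transcripts summed, Fdps was the 1 member called, with a log2 ratio of -0.69 and an adjusted exact binomial p of 0.0489. That fit called 605 of 8366 genes, or 7.23%, and 2.65% of the 8366 as lower in replicate 2, the direction of Fdps (2.99% of coding genes). A sum can count a fragment more than once, which the binomial test takes for independent fragments. Scd2 and Hmgcs1, with the most counts, had log2 ratios of 0.09 (SE 0.14) and -0.09 (SE 0.15), both smaller than their counting error. Srebf2 had a ratio of -0.52 (SE 0.33) and Acly one of 0.48 (SE 0.31). The lowest ratio was that of Srebf1, -0.96 with an SE of 0.76. With 3 to 5 counts in replicate 2, members such as Lss, Pmvk and Insig1 could not be told apart from equal abundance at this depth.

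**Figure D4:**
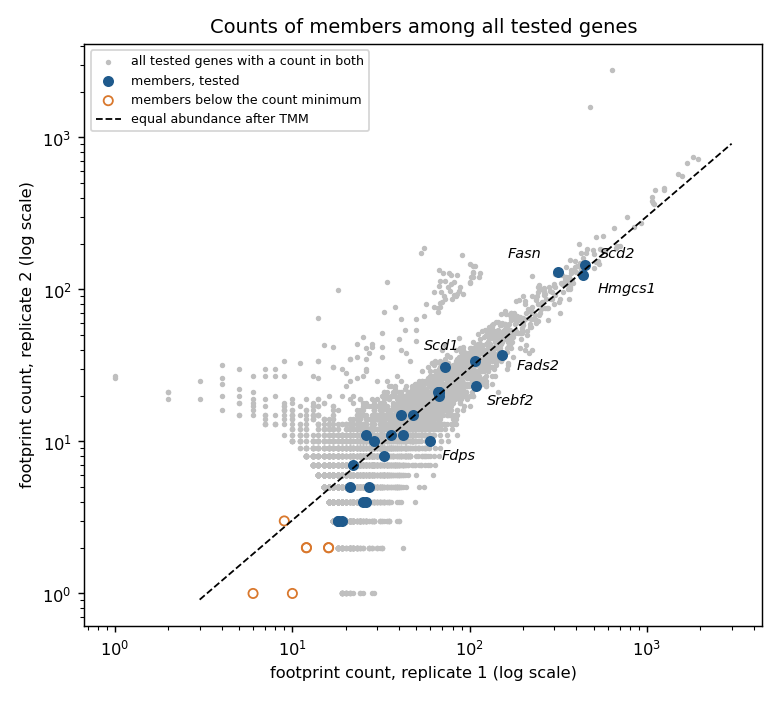
Footprint counts in replicate 1 (horizontal axis) and replicate 2 (vertical axis), both on log scales, for all tested genes with a count in both libraries (grey), the 27 tested members (blue) and the 7 members below the count minimum (open orange). The dashed line marks equal abundance after TMM scaling. Scd2 and Hmgcs1 lie near the line, Fasn above it and Fdps below it.

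Other genes of lipid handling were taken from lists. Of 21 genes of sterol handling and side branches, 9 passed the count minimum. Of these, 1 was higher in replicate 2 and 0 were lower, against 3.99% and 0.147% of all tested genes. Of the tested coding genes alone, 0.956% were called in either direction. Apoe, the main lipid carrier of brain, led this list at 1100.2 and 1049 CPM per kb, a level between those of Hmgcs1 and Scd2. Pgrmc1, a haem-binding partner of sterol cytochromes, stood at 705 and 532, and Acat1, the mitochondrial thiolase, at 196 and 280.1. The gene that was higher was Osbp, an oxysterol-binding protein, with 22 and 20 counts. Its log2 ratio was 1.57, with a counting SE of 0.44 and an adjusted exact binomial p of 0.0194. That call was lost with library totals (adjusted p = 0.0645), with a minimum of 1 count in each library (0.104) and with the preset coefficient of variation (0.467).

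Of 22 other genes of fatty acid synthesis, 10 passed the count minimum and 0 were called, against 4.14% of all tested genes and 0.956% of the coding ones. Tecr, the reductase that completes each elongation cycle, led this list at 541 and 645 CPM per kb, above Fasn and every elongase among the members in both libraries, and Scd3 and Scd4 followed. Of 10 genes of fatty acid oxidation, 5 passed and 0 were called. Acadl, an acyl-CoA dehydrogenase, stood at 48.2 and 89.8 CPM per kb from 23 and 13 counts. The median levels were 62.4 CPM per kb for the 34 members, 35.6 for the other fatty acid synthesis genes, 23.2 for sterol handling and 20.0 for oxidation. These differences were not tested.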

How the data were processed

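Whole-number counts of footprints per transcript were deposited by the authors, not normalised, with transcript, coding and untranslated lengths in nucleotides. Trimmomatic 0.36, Bowtie2 2.2.6, SAMtools and build GRCm38.p4 are named in the submitters' processing notes; the counting tool is not given in the sources used here. Columns were matched to replicates by number. Symbols are those of the table, and all 34 members had the same symbol in the name table. A gene's count is that of its transcript with the highest summed count, the longer one in a tie; levels use the highest coding transcript where that one is not coding. CPM used edgeR 4.0.16 (R 4.3.3) TMM factors of 1.07 and 0.931 over genes whose counts averaged 10 or more. Log2 ratios used a pseudocount of 1 CPM. The binomial test, in scipy 1.17.1, was checked on simulated counts. Shares carry 95% Wilson intervals, levels exact Poisson intervals, and ratios of genes exact binomial intervals; a count of 0 allows up to 3 counts. All members are named, with the 3 highest genes and any called gene of the 3 other lists, of which some are not reported here. Members and lists were chosen with earlier results of these data known. Alternatives changed scaling, transcript choice, length, count minimum, assumed spread, pseudocount and libraries.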

Additional observations from a re-analysis of the deposited data

How the results depend on the processing

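Depth limits the low members most: 16 of 34 had fewer than 10 counts in replicate 2. No paired analysis was possible because the design holds a single group. Leaving out a replicate leaves the replicate comparison without a value. The transcript choices by highest coding count, the coding total and the omission of the 3 leading members were added after seeing the data. Scaling by library totals or TMM over coding genes changed none of the main results, and neither did the longest coding isoform, which did lower the level of Mvk from 21.5 to 5.66 CPM per kb.

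Summing transcripts raised the library totals as well as the counts of members with several transcripts. It moved the median member level from 62.4 to 71.3 CPM per kb and the members' share from 0.671% to 0.522%. It moved the ratios of Srebf2 to Srebf1 from 4.99 to 1.21, of Elovl5 to Elovl6 from 1.87 to 1.17 (0.708 in replicate 1 and 1.64 in replicate 2) and of Elovl1 to Elovl5 from 0.226 to 0.514. It moved the genes called from 225 (217 higher in replicate 2) to 605 (383 higher) and the members called from 0 to 1, Fdps. Transcript length in place of coding length gave a median of 31.3 CPM per kb and ratios of 3.75 for Scd2 to Scd1, 4.68 for Fads2 to Fads1, 0.526 for Acsl4 to Acsl3 and 0.438 for Elovl1 to Elovl5, by its construction. It placed Hmgcs1 (354) and Fads2 (247) above Scd2 (230.0). The share was 0.330% without Scd2, Hmgcs1 and Fasn and 0.867% of coding counts. A mean of at least 50 counts left 75 genes called and the preset coefficient of variation of 0.2 left 131, with 0 members in both. Each replicate alone gave median levels of 56.5 and 64.7 CPM per kb, shares of 0.619% and 0.722%, and 17 and 18 members above the median of coding genes past the minimum. The ratios ranged from 4.15 to 4.23 (Scd2 to Scd1), 1.77 to 2.33 (Fads2 to Fads1), 0.642 to 0.743 (Acsl4 to Acsl3), 4.21 to 5.77 (Srebf2 to Srebf1), 1.51 to 2.23 (Elovl5 to Elovl6) and 0.214 to 0.238 (Elovl1 to Elovl5).

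Library totals shifted the median log2 ratio of all genes from 0.0041 to -0.20. With that shift the small positive ratios turned negative for Acat2 (-0.16), Mvd (-0.19), Fdft1 and Cyp51 (-0.16 each), Dhcr7 (-0.022), Scap (-0.14), Scd1 (-0.14), Scd2 (-0.11) and Fads1 (-0.14). With at least 1 count in each library they turned for Acat2 (-0.14), Mvd (-0.17), Fdft1 and Cyp51 (-0.14 each), Scap (-0.11), Scd1 (-0.12), Scd2 (-0.091) and Fads1 (-0.12). Summed transcripts turned Acat2 (-0.16), Dhcr7 (-0.092), Pmvk (0.0041) and Idi1 (0.30), and a mean of at least 50 counts turned Scd1 (-0.0075). None of these ratios was called under any of these settings. Except where the setting's construction shows it, the cause was not tested.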
